A study of Homo sapiens with 4 samples.

Results

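The 10 genes named by symbol, covering chondroitin sulfate assembly and carbohydrate sulfation, were followed in RNA sequencing of MV4-11 cells: CSGALNACT1, CSGALNACT2, CHSY1, CHPF, CHPF2, CHST2, CHST4, CHST11, CHST12 and CHST15. Of these 10 genes, 9 had a row among the 23622 genes of the deposited table, and levels of CHST15 were not analysed here. MV4-11 is a human acute myeloid leukemia cell line, and all 4 libraries are labelled with the genotype WT. The 2 sh-NC libraries are labelled as untreated and named as the control hairpin in the table. The 2 sh-IRF1 libraries are labelled as IRF1 knockdown. Per the study's methods, hairpins were delivered by lentivirus and infected cells were selected with puromycin, and the hairpin behind each sh-IRF1 library is not named. The study's methods describe its experiments in general as independently repeated, but neither they nor the labels say whether the libraries of a group came from separate cultures, so every p-value measures only the spread between these libraries, which may be technical.

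Chondroitin sulfate is a chain of alternating glucuronic acid and N-acetylgalactosamine that is built in the Golgi on a core protein. A first N-acetylgalactosamine is set on a linkage region, synthases extend the chain, and sulfotransferases then add sulfate taken from the donor PAPS. In myeloid cells the best known carrier is serglycin, the proteoglycan that helps to pack proteins into secretory granules. A related branch of sulfotransferases acts on N-acetylglucosamine in keratan sulfate and in the sialyl Lewis x glycans that selectins recognize.

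The 10 genes were chosen by name, with the normalized counts of these 4 libraries and the difference between the groups already known. Their values are therefore given as a description, without p-values. The unit is the normalized count, the reads of a gene divided by 1 size factor per library. Depth ran from 17635908 to 18695337 reads per library. A gene was called when limma gave an adjusted p under 0.05 and a log2 fold change beyond 0.5 in size on log2(normalized count + 1), with Benjamini-Hochberg adjustment over the 14120 genes that reached 10 normalized counts in 2 or more libraries. On this scale, changes of genes with few reads come out too small. For a single gene, the smallest p that exact two-sided permutation allows with so few libraries is 0.33. IRF1, the targeted gene, averaged 762 ± 32.7 in the controls against 431 ± 1.58 after knockdown (SD, n = 2 per group). Its log2 fold change was -0.82 (SE 0.0904, limma adjusted p = 1.69e-10), although 22.9% of its exonic bases are shared with other genes on the opposite strand.

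CSGALNACT1, which starts the chain, and CHST4 and CHST2, which sulfate N-acetylglucosamine, held the largest differences among the 9 genes, while the main chain synthase CHSY1 and its partner CHPF were nearly level. CSGALNACT1 and CHST4 went from at most 5 reads to at least 47 reads per library, CHST2 was 1.73 times its control level, and CSGALNACT2, CHPF2 and CHST11 lay between 1.2 and 1.31 times theirs. Of the 9 genes, 8 had both sh-IRF1 libraries above both sh-NC libraries, beside 34.2% of all tested genes, 0 had both below, beside 35% of all, and CHSY1 alone overlapped. The call was met by 3 of them as higher (CSGALNACT1, CHST2 and CHST4), where 8.27% of all tested genes were called higher, and by 0 as lower, also at an unadjusted limma p under 0.05. Over all tested genes, 52.3% of the calls were higher, and 63.1% with upper-quartile scaling. At an adjusted p under 0.05 with any fold, 6 were higher and 0 lower, beside 20.3% and 21.9% of all tested genes. The 9 had a median of 0.39 on the log2 scale, beside -0.0019 over all tested genes. Because CSGALNACT1 and CHST4 passed the filter on low values only through the sh-IRF1 libraries, they had to differ, and these counts and the median support nothing.

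**Figure D1:**
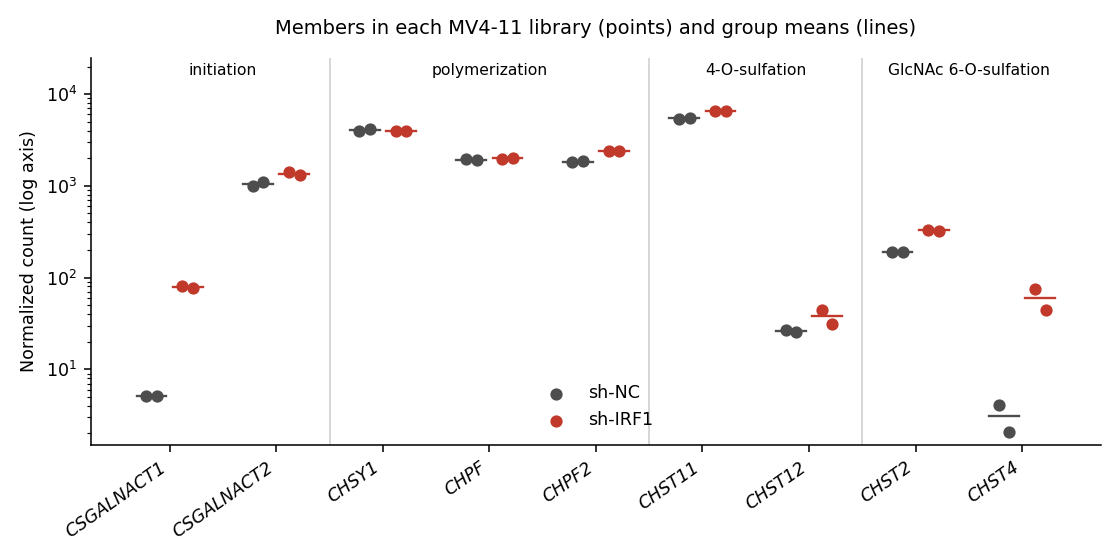
Normalized count (log axis) of the 9 genes in each of the 4 libraries, ordered by step of the pathway. Points are libraries and short lines are group means. CSGALNACT1 and CHST4 sit at 2.05 to 5.14 in sh-NC and at 44.04 to 81.6 in sh-IRF1, while CHSY1 and CHPF change little.

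CSGALNACT1 (ENSG00000147408, hg38 chromosome 8 from 19404161 to 19758029) and CSGALNACT2 (ENSG00000169826, chromosome 10 from 43138445 to 43185302) encode the enzymes that add the first N-acetylgalactosamine and so commit the linkage region to chondroitin. CSGALNACT1 had normalized counts of 5.13 and 5.14 in the sh-NC libraries against 81.6 and 77.8 in the sh-IRF1 libraries. These are 5 reads in each control library against 82 and 83 reads, so both knockdown libraries are far above both controls. The ratio of reads scaled by the size factors was 15.5, with an exact (Clopper-Pearson) 95% interval from 8.22 to 33.0 that covers counting error only. Its log2 fold change was 3.72 (SE 0.446), which ranked 6 among the 14120 tested genes. This fold change lay between 3.06 and 3.83 with other pseudocounts, scalings and filters. CSGALNACT1 passed the filter only through the sh-IRF1 libraries, so its interval and rank are a description and support nothing.

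CSGALNACT2 had far more transcript, at 999 and 1108 normalized counts in the sh-NC libraries against 1411 and 1302 in the sh-IRF1 libraries. The groups did not overlap, and the log2 fold change was 0.37 (SE 0.0665), between 0.29 and 0.44 with each library left out. Per kilobase of exons, CSGALNACT1 made up 0.253% and 0.228% of the sum of this pair in the sh-NC libraries against 2.77% and 2.86% in the sh-IRF1 libraries. CSGALNACT2 thus held nearly all transcript of the pair in each of the 4 libraries.

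Of the synthases that extend the chain, CHSY1 and CHPF were nearly level and CHPF2 was not. CHSY1 (ENSG00000131873, chromosome 15 from 101175727 to 101252048), which adds both sugars of the repeat, read 3917 and 4122 normalized counts in the sh-NC libraries against 3963 and 3917 in the sh-IRF1 libraries. Its groups overlapped, and the log2 fold change of -0.03 (SE 0.0401) turned to 0.01 at most when a library was left out and to 0.03 with another scaling. CHPF (ENSG00000123989, chromosome 2 from 219538954 to 219543809), the polymerizing factor that works together with CHSY1, was at 1939 and 1926 in sh-NC and at 1971 and 2015 in sh-IRF1. Its difference of 0.04 on the log2 scale (SE 0.0512) is within the replicate error even though the 4 values do not overlap between the groups.

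CHPF2 (ENSG00000033100, chromosome 7 from 151232483 to 151240979), a further member of the synthase family, stood apart from this pair. Its normalized counts were 1804 and 1863 in sh-NC and 2408 and 2407 in sh-IRF1, without overlap. The log2 fold change was 0.39 (SE 0.0499) and ranged from 0.37 to 0.42 when single libraries were left out. Reads of CHPF2 cannot be assigned with certainty, since 22.2% of its exonic bases are shared with MIR671, SMARCD3 and an unnamed gene, and whether strand was used in counting is not stated. Of the summed level per kilobase of the 3 synthases, CHSY1 held 46.3% and 47.4% in sh-NC and 43.7% and 43.0% in sh-IRF1.

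Sulfation of N-acetylgalactosamine at carbon 4 is carried out by CHST11 and CHST12, together with CHST13. CHST11 (ENSG00000171310, chromosome 12 from 104455295 to 104762014) had the most reads of the 9 genes, at 5408 and 5528 normalized counts in the sh-NC libraries against 6498 and 6605 in the sh-IRF1 libraries. The groups lay clearly apart at a modest fold, with a log2 fold change of 0.26 (SE 0.0347) that ranged from 0.24 to 0.28 when single libraries were left out. CHST12 (ENSG00000136213, chromosome 7 from 2403588 to 2448484) read only 26.7 and 25.7 normalized counts in the sh-NC libraries against 44.8 and 30.9 in the sh-IRF1 libraries. The knockdown libraries of CHST12 differed from each other by more than the lower one differed from the controls, and the log2 fold change of 0.49 (SE 0.371) ranged from 0.23 without sh-IRF1 replicate 1 to 0.75 without sh-IRF1 replicate 2. Per kilobase, CHST11 made up 89.6% and 91.9% of the 3 enzymes in sh-NC and 95.7% and 93.9% in sh-IRF1. The share also depends on CHST13, at 84.3 normalized counts per kilobase in sh-NC and 53.3 in sh-IRF1. The log2 fold change of CHST13, -0.67, was -0.38 without sh-IRF1 replicate 1. For CHST12, an annotated transcript of 15985 bases makes up nearly all of the 16116 exonic bases used.

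CHST2 (ENSG00000175040, chromosome 3 from 143119771 to 143124014) and CHST4 (ENSG00000140835, chromosome 16 from 71525233 to 71538748) transfer sulfate to carbon 6 of N-acetylglucosamine, and both are known from selectin ligands on the venules of lymph nodes. CHST2 read 190 and 188 normalized counts in the sh-NC libraries against 331 and 322 in the sh-IRF1 libraries. Both knockdown libraries lay well above both controls, and the controls were nearly equal. The log2 fold change was 0.79 (SE 0.135), from 0.77 to 0.81 with each library left out.

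CHST4 read 4.10 and 2.05 normalized counts in the sh-NC libraries against 74.6 and 44.04 in the sh-IRF1 libraries, that is 4 and 2 reads against 75 and 47 reads. The groups were far apart, but the knockdown libraries also differed from each other. The ratio of reads scaled by the size factors was 19.1 (exact 95% interval 8.53 to 53.1, counting error only). The log2 fold change of 3.89 (SE 0.557) ranked 5 among all tested genes, and it ranged from 3.51 to 4.26 with each library left out and from 2.96 with a pseudocount of 5 to 4.08 with one of 0.5. CHST4 too passed the filter only through the sh-IRF1 libraries, so its interval and rank are a description and support nothing. Of the summed level per kilobase of CHST2 and CHST4, CHST4 held 3.38% and 1.74% in sh-NC and 26.7% and 18.1% in sh-IRF1.

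**Figure D2:**
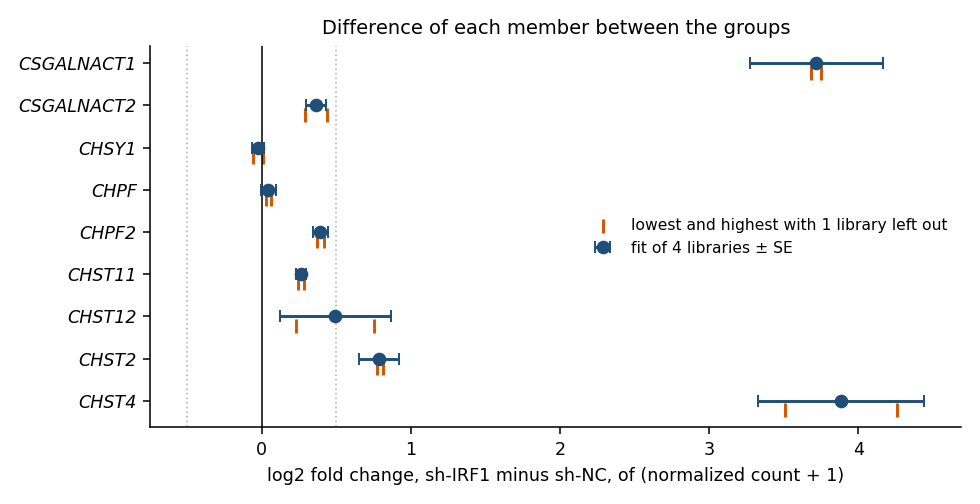
Log2 fold change of sh-IRF1 minus sh-NC for the 9 genes, on log2(normalized count + 1). Circles with bars are the limma estimate from 4 libraries ± SE, ticks are the lowest and highest estimate with 1 library left out, and dotted lines mark 0.5 in either direction. CSGALNACT1 (3.72) and CHST4 (3.89) lie far to the right, and the bar of CHST12 reaches across the dotted line.

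The order of the levels was compared per kilobase of exons, since raw counts grow with transcript length. In sh-NC, CHST11 was highest at 842 ± 13.1 normalized counts per kilobase, followed by CHSY1 at 709 ± 25.5 and CHPF at 522 ± 2.46 (SD, n = 2 each). CHPF2 at 282 ± 6.40 and CSGALNACT2 at 280 ± 20.5 came next and overlapped each other. CHST2 was lower at 45.6 ± 0.309. CHST12 at 1.62 ± 0.0436, CHST4 at 1.204 ± 0.566 and CSGALNACT1 at 0.673 ± 0.000613 closed the order, and CHST12 and CHST4 overlapped.

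In sh-IRF1 the first 6 places were the same, from CHST11 at 1009 ± 11.6 to CHST2 at 78.9 ± 1.52 normalized counts per kilobase, with CHPF2 and CSGALNACT2 again overlapping. CHST4 at 23.2 ± 8.45 and CSGALNACT1 at 10.4 ± 0.352 stood above CHST12 at 2.35 ± 0.607 (SD, n = 2 each). CHST4 and CSGALNACT1 remained low in absolute terms, since 26.4% and 15.8% of all tested genes had a lower level per kilobase in sh-IRF1 than these genes. The level of CHST11 was above that of 94.9% of tested genes. Parts of the order depend on the length used. With the canonical transcript in place of all exons, CHPF2 was at 459.7 in sh-NC, well above CSGALNACT2 at 279.9, and CSGALNACT1 was at 1.387, nearly level with CHST4 at 1.426. CHST12 was at 1.637, since an annotated transcript of 15985 bases makes up nearly all of its length under each choice.

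**Figure D3:**
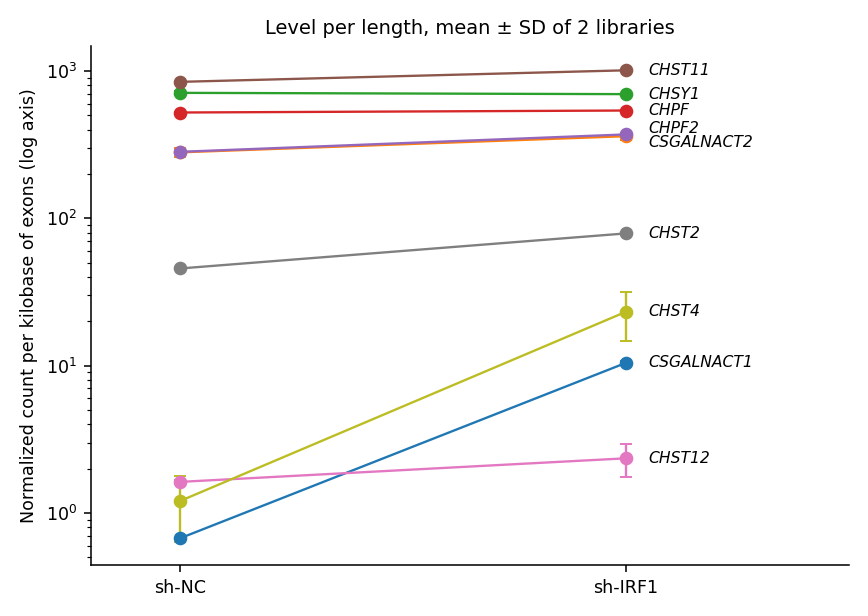
Level of each gene as normalized count per kilobase of exons (log axis), as mean ± SD of the 2 libraries of each group, with lines joining the same gene. The lines of CHST4 and CSGALNACT1 cross that of CHST12, and the other 6 keep their order.

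The bases before the annotated starts are shown for 5 genes, to set genes with a large, a small and no difference side by side. RefSeq start windows (GRCh38.p14, the 100 bases before a start, 5′ to 3′ on the strand of the gene) were read for the following genes, with matches to CCGGAAG or CACGTG in capitals.
CHST2, chr3:143119671-143119770, plus strand: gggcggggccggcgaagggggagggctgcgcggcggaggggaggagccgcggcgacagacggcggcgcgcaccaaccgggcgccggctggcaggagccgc
CHST4, chr16:71526326-71526425, plus strand: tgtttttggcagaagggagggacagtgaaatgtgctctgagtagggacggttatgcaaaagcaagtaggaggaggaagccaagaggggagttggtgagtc
CSGALNACT2, chr10:43138345-43138444, plus strand: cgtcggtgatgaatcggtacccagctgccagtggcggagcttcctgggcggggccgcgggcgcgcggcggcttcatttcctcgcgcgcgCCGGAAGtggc
CHPF2, chr7:151232383-151232482, plus strand: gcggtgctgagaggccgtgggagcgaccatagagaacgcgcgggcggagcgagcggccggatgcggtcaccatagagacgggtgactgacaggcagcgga
CHSY1, chr15:101252049-101252148, minus strand: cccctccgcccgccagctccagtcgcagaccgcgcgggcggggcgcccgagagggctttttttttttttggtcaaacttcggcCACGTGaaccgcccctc
The window of CHST2 was 84% G or C and that of CHST4 was 51%, beside a median of 60% over 35116 promoter windows of this length. CHST4 has a pair of RefSeq starts, of which the downstream one is shown, and both windows lie inside the longer gene model used for its coordinates above. No sequence of CSGALNACT1 is shown.

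The 4 motifs below were searched on both strands in 300-base windows, from 250 bases before to 50 after a start. The search covered 11 windows of 9 of the 10 genes. CHPF and CHST4 had 2 windows each, CHST15 was included, and no window of CSGALNACT1 was searched. The IRF motif, GAAA repeated after a gap of any 2 bases, was in 0 of the 11 windows and in 3.57% of all promoters. The ETS motif CCGGAAG was in 3 of the 11, beside 10.3% of all. These matches were in both windows of CHPF and in that of CSGALNACT2, where it began 11 bases before the start. The RUNX motif TGTGGTT was in 0 (4.27% of all) and the E-box CACGTG in 1 (7.26% of all), that of CHSY1. Matches of different motifs lay in different genes, and a match or its absence describes these letters only.

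Upstream of the 9 genes, the linkage region that chondroitin and heparan sulfate share is made by xylosyltransferases, galactosyltransferases and a glucuronyltransferase. The list also holds a kinase and a phosphatase of its xylose, FAM20B and PXYLP1. Of its 7 genes, all tested, 1 was called higher and 0 lower, beside 8.27% and 7.56% of all tested genes, and 5 had a higher level at an adjusted p under 0.05 at any fold, beside 20.3% of all tested genes. B4GALT7, which adds the first galactose, averaged 467 ± 34.4 against 679 ± 73.1 in the knockdown (SD, n = 2 each), for a log2 fold change of 0.54 (SE 0.0949, limma adjusted p = 6.76e-06). The call of B4GALT7 was lost without sh-NC replicate 2 (log2 fold change 0.46) or sh-IRF1 replicate 1 (0.43). B3GALT6, which adds the second galactose and had the highest level per kilobase of this list, had a log2 fold change of -0.05 (SE 0.0418, adjusted p = 0.364).

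Of 7 tested genes for sulfate uptake and for the making, transport and breakdown of PAPS, 2 were called higher and 0 lower, beside 8.27% and 7.56% of all tested genes. The list had a median of 0.22 on the log2 scale, beside -0.0019 over all tested genes. PAPSS1, a synthase of PAPS, read 287 and 372 normalized counts in the sh-NC libraries against 612 and 644 in the sh-IRF1 libraries. That is a log2 fold change of 0.94 (SE 0.108, limma adjusted p = 5.69e-10). SLC26A2, a sulfate transporter of the cell membrane, rose from 854 ± 94.4 to 1242 ± 30.7 (SD, n = 2 each), by 0.55 on the log2 scale (SE 0.0722, adjusted p = 1.76e-08), and by 0.43, short of the call, without sh-NC replicate 1. BPNT2, the Golgi phosphatase that acts on what remains of the donor after transfer, had the highest level per kilobase of the list and a log2 fold change of 0.15 (SE 0.0345, adjusted p = 4.22e-04). Among 9 genes for UDP sugars, 0 were called in either direction by limma, beside 8.27% higher and 7.56% lower of all tested genes. At an unadjusted limma p under 0.05, 2 of the 9 were higher and 2 lower. UGP2, which makes UDP-glucose, led this list by level and had a log2 fold change of 0.04 (SE 0.0487, adjusted p = 0.531).

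Among the other enzymes of chondroitin and dermatan sulfate, 5 were tested, of which 0 were called higher, also at an unadjusted limma p under 0.05, and 1 lower. Over all tested genes, 8.27% were called higher and 7.56% lower. CHST13, the remaining 4-O-sulfotransferase, read 183 and 141 normalized counts in the sh-NC libraries against 81.6 and 123 in the sh-IRF1 libraries. Its log2 fold change of -0.67 (SE 0.2, limma adjusted p = 0.00531) was -0.49 without sh-NC replicate 1 and -0.38 without sh-IRF1 replicate 1, and neither value was called. CHST14, the dermatan 4-O-sulfotransferase with the highest level per kilobase of this list, was nearly level at 703 ± 2.82 and 656 ± 1.63 (SD, n = 2 each). Of 10 further carbohydrate sulfotransferases listed, only CHST10, which makes the HNK-1 epitope, could be tested, with a log2 fold change of -0.35 (SE 0.0873, adjusted p = 0.00107) that does not reach the call.

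Heparan sulfate is the other chain built on the same linkage region. Of its 11 tested genes, 4 were called lower and 0 higher, beside 7.56% of all tested genes called lower and 8.27% higher. At an unadjusted limma p under 0.05, 1 of the 11 was higher. HS3ST3B1, a 3-O-sulfotransferase, fell from 460 ± 2.6 to 196 ± 18.5 (SD, n = 2 each), for a log2 fold change of -1.23 (SE 0.125, adjusted p = 1.57e-11). NDST1, which starts sulfation by acting on the nitrogen of glucosamine, fell from 1525 ± 43.5 to 1011 ± 68.0, a log2 fold change of -0.59 (SE 0.0643, adjusted p = 1.06e-10). GLCE, the epimerase of glucuronic acid, fell from 626 ± 0.881 to 384 ± 18.3, a log2 fold change of -0.70 (SE 0.0975, adjusted p = 4.76e-08). The remaining one, EXTL1, was named beyond the 3 with the smallest p and also after its values were seen. It had 21.6 ± 2.88 and 4.86 ± 1.57 normalized counts. Its log2 fold change of -1.97 (SE 0.64) was -1.83 without sh-NC replicate 1 and -1.69 without sh-IRF1 replicate 2, and neither value was called. EXTL1 passed the filter on low values only through the sh-NC libraries, so it had to be lower, and its call supports nothing.

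Of 15 tested core proteins that can carry chondroitin sulfate, 1 was called higher and 3 lower, beside 8.27% and 7.56% of all tested genes. SRGN, which encodes serglycin, was by far the highest of them per kilobase and averaged 19390 ± 82.5 normalized counts against 21880 ± 676 in the knockdown (SD, n = 2 each), for a log2 fold change of 0.17 (SE 0.0255, limma adjusted p = 1.74e-07) that does not reach the call. CD74, the invariant chain of MHC class II, which has a chondroitin sulfate form, rose by 0.63 on the log2 scale (SE 0.0309, adjusted p = 3.25e-22). THBD (thrombomodulin) fell from 5630 ± 13.7 to 3072 ± 1.55, CSPG4 (the NG2 proteoglycan) from 3364 ± 73.5 to 1926 ± 135 and CSF1 (macrophage colony-stimulating factor) from 244 ± 5.58 to 78.4 ± 12.4 (SD, n = 2 each). The table also holds 4 pseudogenes named after CSPG4. The log2 fold changes of THBD, CSPG4 and CSF1 were -0.87, -0.81 and -1.64, with limma adjusted p of 8.64e-24, 7.39e-19 and 2.24e-10.

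Lysosomal breakdown of chondroitin and dermatan sulfate had 5 of 10 tested genes called higher and 0 lower, beside 8.27% and 7.56% of all tested genes, with 1 lower at an unadjusted limma p under 0.05. ARSB, the sulfatase that removes the 4-O-sulfate set by CHST11 and CHST12, rose from 1442 ± 46.3 to 2627 ± 91.3 (SD, n = 2 each), for a log2 fold change of 0.86 (SE 0.0522, adjusted p = 7.54e-19). GUSB, the β-glucuronidase and the highest of this list per kilobase, rose by 0.58 (SE 0.0476, adjusted p = 2.63e-14), and 11 pseudogenes named after it have rows of their own, so its reads may be split. IDS, which removes sulfate from iduronic acid, rose by 1.21 (SE 0.0782, adjusted p = 8.84e-18), but 75.9% of its exonic bases are shared with other genes. HEXA (1.04) and HYAL3 (0.55), named beyond the 3 with the smallest p and also after their values were seen, share 16.73% and 13.98%. The log2 fold change of HYAL3 was 0.44, short of the call, without sh-IRF1 replicate 1.

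Because CHST2 and CHST4 act on glycans that selectins bind, selectin ligands and the enzymes of sialyl Lewis x were read beside them. Of 8 tested genes, 4 were called higher and 1 lower, beside 8.27% and 7.56% of all tested genes. SELPLG, which encodes the P-selectin ligand PSGL-1, read 903 and 966 normalized counts in the sh-NC libraries against 1879 and 1963 in the sh-IRF1 libraries. This is a log2 fold change of 1.04 (SE 0.0615, limma adjusted p = 3.52e-19). ST3GAL6, a sialyltransferase, rose from 61.6 ± 1.51 to 264 ± 24.8 (SD, n = 2 each), or by 2.08 on the log2 scale (SE 0.187, adjusted p = 4.77e-13), with 12.1% of its exonic bases shared. GCNT1, which opens the core branch of O-glycans, rose by 0.86 (SE 0.0918, adjusted p = 8.16e-11). FUT7, named after its values were seen, had a log2 fold change of 0.65, with 35.8% of its exonic bases shared. B4GALT1, a galactosyltransferase, had a lower level with a log2 fold change of -0.58 (SE 0.0587, adjusted p = 1.38e-11), and FUT4, the highest of the list per kilobase over the 4 libraries, had 0.13 (SE 0.0404, adjusted p = 0.00953), with 12.8% of its exonic bases shared. In sh-IRF1 alone, SELPLG was above FUT4, at 683 against 656 normalized counts per kilobase.

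**Figure D4:**
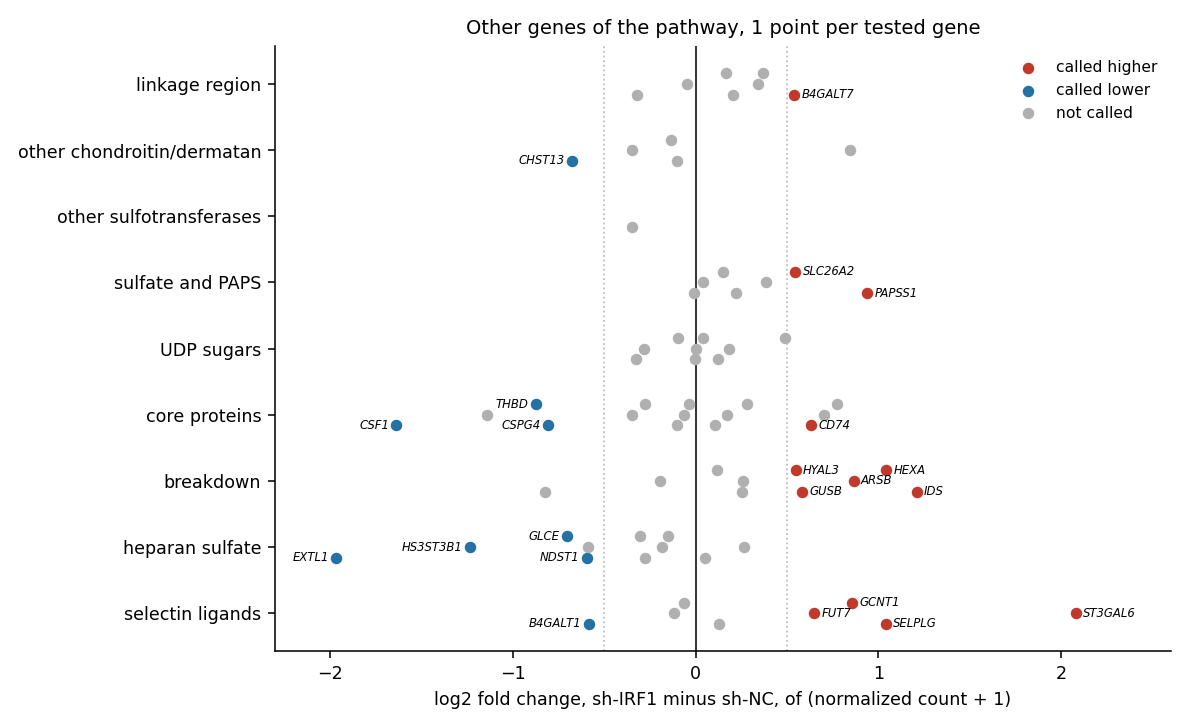
Log2 fold change of sh-IRF1 minus sh-NC, on log2(normalized count + 1), for each tested gene of the 9 other lists, 1 point per gene. Red points were called higher, blue points lower and grey points were not called at an adjusted p under 0.05 and beyond 0.5 (dotted lines). The breakdown list has 5 red points of 10, the selectin ligand list 4 of 8 and the heparan sulfate list 4 blue points of 11, beside 8.27% of all tested genes called higher and 7.56% lower. Of these, IDS, HEXA, HYAL3, ST3GAL6 and FUT7 share over 10% of their exonic bases with other genes and were held uncertain. EXTL1 passed the filter only through the sh-NC libraries, so it had to be lower.

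The cell type markers were read in the same libraries. All 10 myeloid markers passed the filter, of which 2 were called higher (LYZ and ITGAM, log2 fold changes 0.85 and 0.64) and 3 lower (MPO -1.42, FCGR1A -0.57 and CD14 -2.81). These 5 were named after their values were seen. Over all tested genes, 8.27% were called higher and 7.56% lower. LYZ shares 34.7% of its exonic bases with an unnamed gene and so was held uncertain. The summed level of the 10 was 37513 to 37607 in sh-NC and 33500 to 33702 in sh-IRF1, and FLT3 alone, at 17400 ± 14.4 and 12690 ± 78.5 normalized counts (SD, n = 2 each, control first), differed between the groups by more than the sum did. CD33 was at 1158 ± 46.1 and 1182 ± 10.8. Of 10 markers of maturing monocytes, 7 could be tested, and 2 were called higher and 3 lower, beside 8.27% and 7.56% of all tested genes. The summed level of the 10 was 4161 to 4252 in sh-NC and 5152 to 5174 in sh-IRF1. LYZ alone, at 1804 ± 27.4 and 3247 ± 40.4 (SD, n = 2 each, control first), differed between the groups by more than this sum did. S100A9, called lower, passed the filter only through the sh-NC libraries, so it had to be lower. CD14, which is on both lists, was at 40.0 ± 2.94 and 6.41 ± 6.41, with only 11 and 2 reads in the sh-IRF1 libraries. Of 12 markers of other cell types, 3 had a row, with a summed level of 1195 to 1472 in sh-NC and of 3159 to 3228 in sh-IRF1. PECAM1, which myeloid cells also express, carried nearly all of it and was called higher, at 1279 ± 170 and 3149 ± 41. COL1A1 was at 3.08 ± 1.45 and 2.49 ± 3.52. The part of these shifts in the values of the 9 genes was not tested. In bulk RNA, fewer cells of a type and less RNA per cell cannot be told apart.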

How the data were processed

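RNA of MV4-11 cells was sequenced in 2 sh-NC and 2 sh-IRF1 libraries. The submitters' processing notes name HISAT2 2.0.5 and hg38, and the paper names FPKM and DESeq2. The counting tool, annotation and strand setting are not given in the sources used here. The values the authors deposited are a normalized signal, in which each library's reads were scaled by a single factor. All values were whole multiples (within 0.001 read) of 1 step per library, from which depth was read, and intervals cover counting error only. The number of further per-sample columns was 0.

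Symbols were matched for 23456 of 23622 identifiers, and lengths and overlaps came from GENCODE 44. limma 3.58.1 (R 4.3.3; trend, robust) was run on log2(value + 1) for genes with at least 10 in at least 2 libraries, and was tested on simulated data. Genes that share more than 10% of their exonic bases with another gene were held uncertain. The 9 genes and the other lists were chosen with earlier results of these data known. From each other list, up to 3 called genes per direction with the smallest p and the gene with the highest level per kilobase are named. These called genes were thus picked by their values in this contrast, and their p-values are those of picked genes. Listed genes without a row were not analysed here. Some listed genes are not reported here. Alternatives covered scaling, filter, pseudocount, fold limit, robust setting, a replicate block, gene length and leaving out each library.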

Additional observations from a re-analysis of the deposited data

How the results depend on the processing

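The counts moved most with the fold limit. With no minimum fold change, 2861 genes were called higher and 3092 lower, and beyond a log2 fold change of 1 there were 389 and 318. The same pair of settings gave, for the 9 genes, 6 and 2 called higher, the first adding CSGALNACT2, CHPF2 and CHST11 and the second dropping CHST2. With no minimum, 7 breakdown genes, 5 selectin ligand genes, 5 linkage genes, 4 sulfate genes, 3 core proteins, 1 heparan gene and 1 UDP sugar gene were called higher, and 5 heparan genes, 5 core proteins, 1 breakdown gene, 1 selectin ligand gene, 1 other chondroitin gene, 1 UDP sugar gene and 1 further sulfotransferase lower. Beyond 1, the called higher numbered 0 for linkage, 0 for sulfate, 0 for core proteins, 2 for breakdown and 2 for selectin ligands, and the called lower 1 core protein, 2 heparan genes, 0 other chondroitin genes and 0 selectin ligand genes.

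The median of all tested genes moved by under 0.1 with either scaling. Upper-quartile scaling called 1449 higher and 849 lower, so that 63.1% of calls were higher in place of 52.3%, and total scaling called 1375 and 878. Each called 1 UDP sugar gene (UGDH) higher, and the cause was not tested. A filter at 50 left CHST4 untested, and 2 of the 9 genes were then called. Leaving out 1 library gave 3 called among the 9 genes each time, and ranges of 1 to 2 core proteins (BCAN added without sh-NC replicate 2), 0 to 1 linkage genes, 0 to 1 UDP sugar genes, 1 to 2 sulfate genes (called higher) and 0 to 2 other chondroitin genes (called lower, CHST7 alone or with CHST13). With the replicate block, 1174 genes were called higher and 1066 lower and 3 of the 9 genes higher. The labels do not say whether the replicate numbers pair the samples. Differences between replicates correlated at 0.0 between the groups over 10559 genes, which shows no shared replicate effect but cannot settle how the libraries were prepared.

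With the longest transcript as length, the sh-NC level per kilobase was 953.6 for CHST11, 862.2 for CHSY1, 589.1 for CHPF, 414.5 for CHPF2 and 1.018 for CSGALNACT1. With the canonical transcript, chosen after seeing the data, it was 953.6, 862.2, 638.1, 459.7 and 1.387. The planned count tests and TMM scaling were not run. The recovered reads served for depth, counting intervals, the total and upper-quartile scalings and the choice of genes in the setting without a filter.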
